A study of Homo sapiens with 4 samples.

Results

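Cytochrome c oxidase (complex IV) was described here through 10 nuclear genes. Of these, 9 encode small subunits of the enzyme (COX4I1, COX5A, COX5B, COX6A1, COX6B1, COX6C, COX7A2, COX7C and COXFA4, formerly NDUFA4) and 1, PET100, encodes an assembly factor. They were taken by gene symbol from the 17687 genes named on an Affymetrix whole-transcript array, with 1 probe set for each. The choice followed earlier results of the same arrays, in which COXFA4, COX6C, COX7C and PET100 were among the genes most reduced in cells with the mutant histone. The differences between the groups in these 10 genes are therefore given as a description, without a test.

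All RNA came from A549, an established human lung adenocarcinoma line, made to carry a short hairpin RNA against LDOC1. The 2 arrays of the H2BK120R group came from the subline A549-shLDOC1-H2BK120R, which also expressed histone H2B with the lysine that accepts monoubiquitin replaced by arginine. The 2 arrays of the vector group came from A549-shLDOC1-V, its control with the empty vector. Both sublines were grown in high-glucose DMEM with 10% FBS and 5 μg/mL puromycin and taken at over 90% confluency. The labels give no drug treatment or time point. The submitters' design text says that LDOC1 depletion raised monoubiquitylated H2B and that the mutant lowered it again, so the comparison asks which transcripts differ once the mark is reduced. There was no subline with added wild-type H2B among these samples, so effects of the mutation and of extra histone cannot be told apart. Depletion of LDOC1 is common to all 4 arrays. The labels do not say whether a subline was a clone or a pool.

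Cytochrome c oxidase takes electrons from cytochrome c, hands them to oxygen and pumps protons across the inner mitochondrial membrane. Its catalytic core is encoded by mitochondrial DNA, and the small subunits, encoded in the nucleus, surround that core and serve in its assembly, stability and regulation. Several small subunits exist as a ubiquitous form and a form restricted to tissues such as heart, lung or testis. Assembly needs many further proteins that are not part of the finished enzyme, PET100 among them. The nuclear genes lie apart on several chromosomes, and the factors NRF1 and GABPA (also called nuclear respiratory factor 2) are known activators of many of them.

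Because these scattered genes are known to share regulators, their promoters are shown first. The RefSeq promoter table (GRCh38.p14, from 250 bases before to 50 bases after each annotated start) matched 9 of the 10 genes, all but COX6C. The 120 bases just before the start are printed for COXFA4, COX7C and PET100, which had the largest differences among those 9, and for COX6A1, COX6B1 and COX5B, which have an ETS motif before the start. The windows are chr7:10940154-10940273 on the minus strand for COXFA4 and, on the plus strand, chr5:86617821-86617940 for COX7C, chr19:7629673-7629792 for PET100, chr12:120437993-120438112 for COX6A1, chr19:35648203-35648322 for COX6B1 and chr2:97645942-97646061 for COX5B. Each reads 5′ to 3′ towards the gene. Capitals mark the ETS motif CCGGAAG, the core bound by GABPA, or its reverse complement.
COXFA4: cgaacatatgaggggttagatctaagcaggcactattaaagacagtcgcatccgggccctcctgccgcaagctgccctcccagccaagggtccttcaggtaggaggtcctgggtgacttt
COX7C: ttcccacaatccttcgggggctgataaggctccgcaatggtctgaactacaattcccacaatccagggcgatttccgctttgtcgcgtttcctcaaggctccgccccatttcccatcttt
PET100: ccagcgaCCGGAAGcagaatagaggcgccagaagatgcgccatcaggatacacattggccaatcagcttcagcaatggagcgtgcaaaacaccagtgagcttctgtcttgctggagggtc
COX6A1: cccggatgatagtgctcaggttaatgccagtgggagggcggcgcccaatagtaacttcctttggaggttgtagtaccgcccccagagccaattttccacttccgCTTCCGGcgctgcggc
COX6B1: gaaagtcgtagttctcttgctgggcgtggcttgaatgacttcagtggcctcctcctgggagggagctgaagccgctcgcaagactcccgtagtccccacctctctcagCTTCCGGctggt
COX5B: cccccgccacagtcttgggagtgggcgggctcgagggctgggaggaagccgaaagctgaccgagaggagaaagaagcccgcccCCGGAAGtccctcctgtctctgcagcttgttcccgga

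The ETS motif, searched as CCGGAAG on both strands over the whole window, was found in 5 of the 9 genes and in 12.2% of the 27305 genes of the promoter table. It began 113 bases before the start in PET100, 37 in COX5B, 16 in COX6A1 and 12 in COX6B1. COX5B held a further copy across the start itself, and the copy of COX4I1 lay just after the start. The genes with the motif differed between the groups by -1.07 (PET100) to 0.21 (COX4I1) on the log2 scale, and those without it, COXFA4, COX7C, COX7A2 and COX5A, by -0.91 to -0.06. The ranges overlapped.

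The other motifs, also searched on both strands, were rarer in these windows. CCAAT was present in 3 of the 9 genes (COX6A1, COX6B1 and PET100, against 39.7% of all genes) and GGGGCGGGG, an SP1 site, in 1 (COX5B, against 18.5%). The palindromic NRF1 motif, searched with its central base open and also in its strict form, was in 0 of the 9 genes, against 6.98% and 1.52% of all genes. TATAAA and the YY1 motif AAGATGGC were likewise in 0, against 14% and 3.52%. A match here is only a match of letters and not a measured site.

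The deposited values were taken as log2 levels already normalized between arrays. Both points were inferred, from the range of 1.56 to 19.15 and from array medians between 6.40 and 6.43. Pearson correlations over the 21448 probe sets lay between 0.990 and 0.994 for the 6 pairs of arrays. Over all probe sets, 0 passed a limma adjusted p of 0.05 (0%), and 1437 (6.70%) had an unadjusted p under 0.05, of which 660 (3.08%) were lower and 777 (3.62%) higher with H2BK120R. The targeted gene LDOC1 averaged 8.52 ± 0.21 in the H2BK120R group and 8.17 ± 0.23 in the vector group (SD, n = 2 each). Both groups carry the hairpin, so this does not measure the depletion. Of the 6 markers of A549 and its epithelial type, 4 had a higher and 2 a lower mean with H2BK120R, and none passed limma's adjusted p. KRT8 lay between 17.11 and 17.20, KRT18 between 14.92 and 15.20 and EPCAM between 5.16 and 5.76. CDH1, the 1 marker with an unadjusted p under 0.05, was at 11.24 and 11.20 with H2BK120R and at 10.55 and 10.69 with the vector (0.60 ± 0.15, limma adjusted p = 0.650), and its part in the results below was not tested. Markers of leukocytes lay between 2.94 and 7.97, of fibroblasts between 3.36 and 8.41 and of endothelium between 2.29 and 6.26. No detection calls were used, so a dim value cannot be told from background. Separate cultures are not stated for the replicates. The spread between them may be technical, and p-values then measure only that spread.

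Of the 10 genes, 9 had a lower mean with H2BK120R, and the median difference was -0.475. Over all probe sets 49.4% had a lower mean and the median was 0.00. In 7 of the 10 genes both H2BK120R arrays were under both arrays of the control, against 17.9% of all probe sets, and for 0 of the 10 did they lie above, against 18.6%. The genes were picked on this contrast, so nothing is read from these shares. In RNA from whole cultures, fewer cells expressing a gene and less RNA per cell cannot be told apart.

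**Figure D1:**
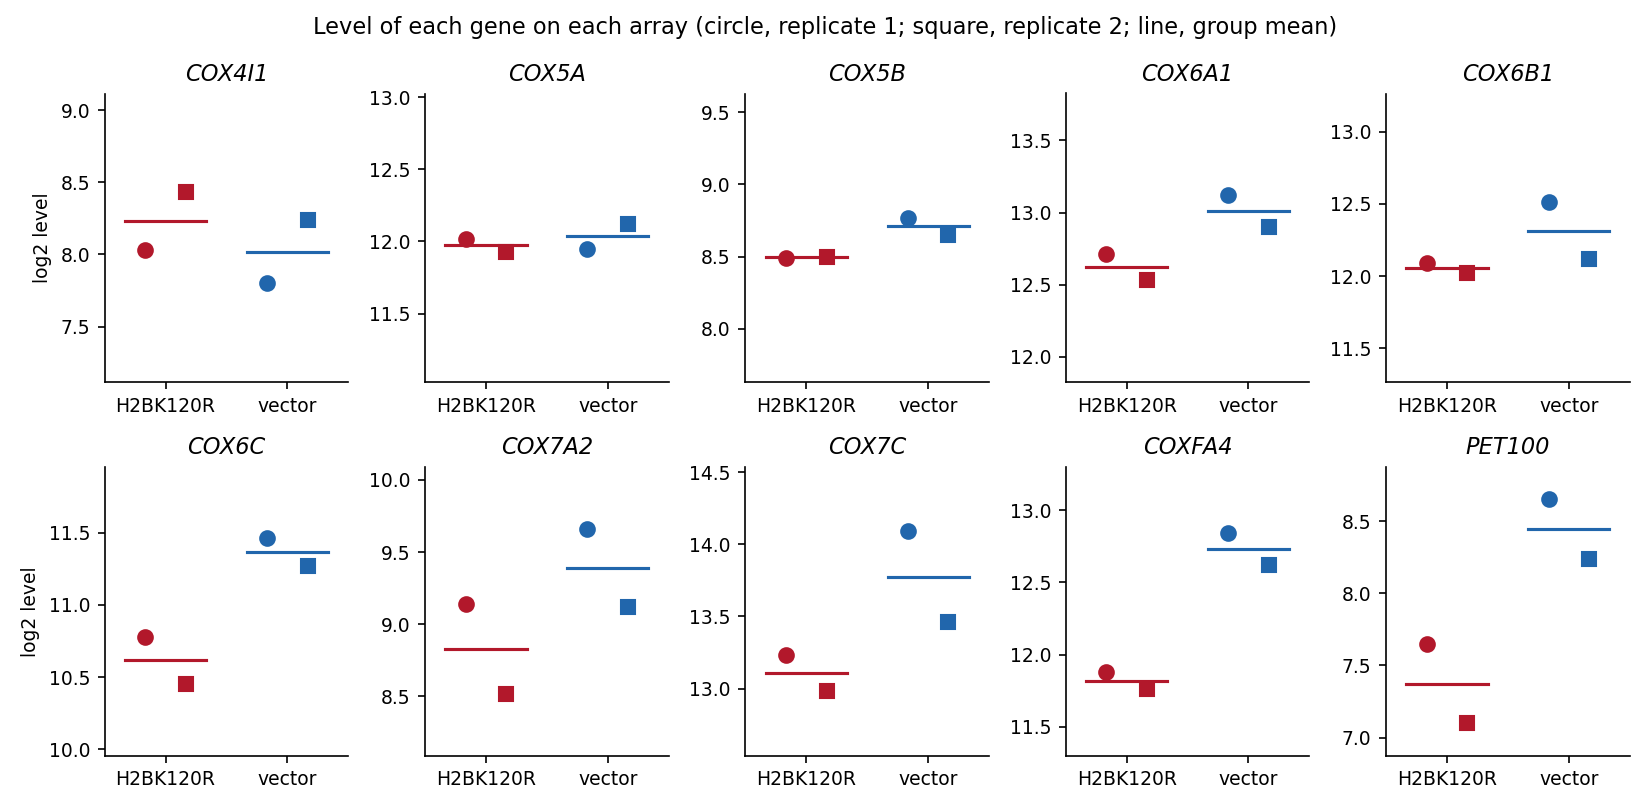
Log2 level (y axis, 2 log2 units in every panel) of each of the 10 genes on the 2 arrays with H2BK120R (red) and the 2 with the vector (blue). Points are single arrays and lines are group means. Red points lie below blue ones in 7 panels, by 0.74 at the closest for COXFA4 and by 0.03 for COX6B1.

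COX4I1 and COX5A encode the subunits that join the first mitochondrially encoded core protein early in assembly, and for both the groups overlapped. COX4I1 (probe set TC1600008709.hg.1) was at 8.03 and 8.43 with H2BK120R and at 7.80 and 8.24 with the vector. The highest and lowest values came from opposite groups. Its difference was 0.21 ± 0.25 (SE), and without vector replicate 1 it was -0.01. COX5A (TC1500010050.hg.1) was at 12.02 and 11.93 with H2BK120R and at 11.95 and 12.12 with the vector. Its difference was -0.06 ± 0.14 and became 0.025 without vector replicate 2. COX4I1 was the 1 gene of the 10 with a higher mean in the mutant group.

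COX5B, COX6A1 and COX6B1 encode further parts of the complex. The COX5B protein faces the matrix and binds zinc, and the proteins of COX6A1 and COX6B1 lie where the monomers of the dimer meet. COX5B (TC0200008554.hg.1) was at 8.49 and 8.50 with H2BK120R and at 8.77 and 8.65 with the vector. The arrays of each group lay close together and the groups did not overlap, with a difference of -0.215 ± 0.20 (SE). COX6A1 (TC1200012716.hg.1) was at 12.71 and 12.53 with H2BK120R and at 13.12 and 12.90 with the vector. All values with the mutant lay at least 0.19 below those with the vector, and the difference was -0.39 ± 0.14. COX6B1 (TC1900007871.hg.1) was at 12.09 and 12.02 with H2BK120R and at 12.51 and 12.12 with the vector. Only 0.03 separated its groups, and the difference of -0.26 ± 0.16 became -0.065 without vector replicate 1, the high array.

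COX6C, COX7A2 and COX7C encode small subunits that each span the membrane once. COX6C (TC0800011239.hg.1) was at 10.78 and 10.45 with H2BK120R and at 11.46 and 11.27 with the vector. The groups were 0.49 apart at their closest, and the difference was -0.75 ± 0.17 (SE), or 40.5% lower on the linear scale. COX7C (TC0500008008.hg.1) was at 13.23 and 12.98 with H2BK120R and at 14.09 and 13.46 with the vector. The groups did not overlap, but vector replicate 1 stood 0.63 above vector replicate 2. The difference of -0.67 ± 0.19 was -0.355 without that array. COX7A2 (TC0600012315.hg.1), the ubiquitous form of its subunit, was at 9.14 and 8.52 with H2BK120R and at 9.66 and 9.12 with the vector. H2BK120R replicate 1 lay 0.02 above vector replicate 2, so the groups overlapped. Its difference of -0.56 ± 0.26 was -0.25 without H2BK120R replicate 2 and -0.29 without vector replicate 1.

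COXFA4 is the subunit that attaches last and was long counted as a complex I protein, as its former symbol NDUFA4 records. It (TC0700010275.hg.1) was at 11.88 and 11.76 with H2BK120R and at 12.84 and 12.62 with the vector. These groups were the furthest apart of the 10, with 0.74 between the highest mutant and the lowest vector array. The difference was -0.91 ± 0.14 (SE), or 46.8% lower on the linear scale, and lay between -1.02 and -0.80 with any 1 array left out. PET100 acts in an intermediate step of assembly and is itself absent from the finished enzyme. It (TC1900011655.hg.1) was at 7.65 and 7.10 with H2BK120R and at 8.65 and 8.24 with the vector. Here too both mutant arrays were below both vector arrays, by at least 0.59. The difference was -1.07 ± 0.26, or 52.4% lower, the largest of the 10 with all arrays. With 1 array left out it lay between -1.345 and -0.795, and COXFA4 then differed more than PET100 in the fit without H2BK120R replicate 2.

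Set against each other array by array, the genes gave a negative median in all 4 pairs, with unequal size. H2BK120R replicate 2 against vector replicate 1 gave the largest median, -0.80, with 9 genes lower and PET100 at -1.55. H2BK120R replicate 1 against vector replicate 2 gave the smallest, -0.20, also with 9 genes lower. The pairs with equal numbers lay between, at -0.47 (8 genes lower) for replicate 1 and -0.425 (9 lower) for replicate 2. In the same order, the share of all probe sets that was lower was 50%, 48.1%, 49.4% and 48.6%. COX4I1 was the highest gene in 3 of the 4 pairs and COX7A2 in the pair of H2BK120R replicate 1 with vector replicate 2.

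**Figure D2:**
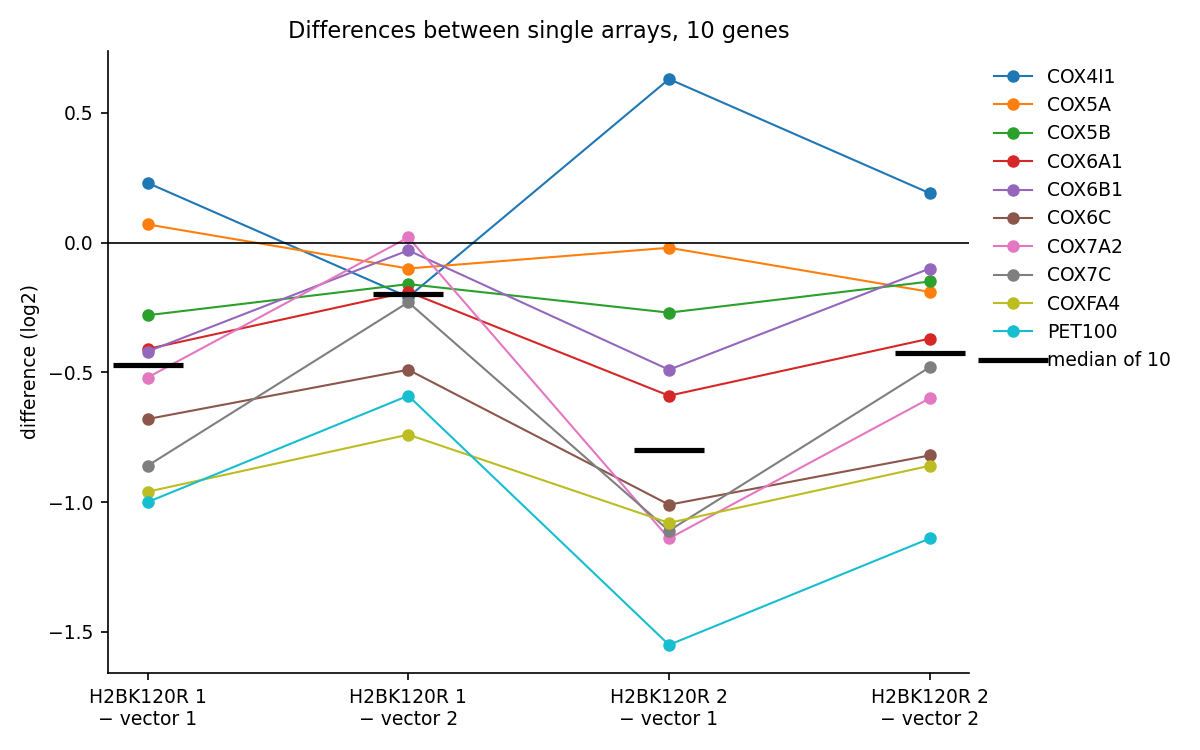
Difference in log2 level (y axis) between 1 array with H2BK120R and 1 with the vector, for the 4 possible pairs (x axis). Coloured points are the 10 genes, thin lines join the same gene and black bars are medians, which run from -0.80 to -0.20. COXFA4, PET100, COX6C, COX7C, COX6A1, COX6B1 and COX5B lie below 0 in every pair.

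The genes also differed within each group. Replicate 1 was above replicate 2 for 8 of the 10 genes with H2BK120R and for 8 of 10 with the vector. The median of replicate 2 minus replicate 1 was -0.15 with H2BK120R and -0.22 with the vector. The shares over all probe sets were 48.9% and 50.4%, with medians of 0.00 and -0.01. COX4I1 ran the other way in both groups, by 0.40 and 0.44. COX7A2 (-0.62 and -0.54) and PET100 (-0.55 and -0.41) had the widest gaps between replicates over both groups. The median difference between groups was thus -0.275 without H2BK120R replicate 2 and -0.285 without vector replicate 1, against -0.6375 without H2BK120R replicate 1 and -0.665 without vector replicate 2. The part of the arrays' own differences in the result was not tested. In all 4 of these fits the median remained below 0.

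Of the further subunits, COX7B and COX8A, both ubiquitous membrane-spanning subunits, were outside the 10 genes but had probe sets. COX7B was at 10.78 and 10.47 with H2BK120R and at 11.57 and 11.04 with the vector, with no overlap. Its difference was -0.68 ± 0.20 (SE), with a limma adjusted p of 0.678. COX8A was at 13.32 and 13.35 with H2BK120R and at 13.37 and 13.62 with the vector, and its groups stood 0.02 apart. Its difference was -0.16 ± 0.13 (limma adjusted p = 0.829). Neither passed the adjusted threshold. By limma COX7B alone had an unadjusted p under 0.05 and was lower, 1 of 2 genes (50%), against 3.08% of all probe sets. The 3 mitochondrially encoded core genes MT-CO1, MT-CO2 and MT-CO3 had no matched probe set and were not analysed here.

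The tissue-restricted forms and relatives, most of them dim here, had no common direction. Of 9 listed genes 8 were measured, 4 were lower and 4 higher with H2BK120R, and the median difference was -0.095. It was 0.15 without vector replicate 1. No gene passed a limma adjusted p of 0.05, and 1 of the 8 had an unadjusted p under 0.05 and was lower, against 3.08% of all probe sets. That gene was COX7B2, the testis form, at 2.60 and 2.49 with H2BK120R and 3.18 and 3.36 with the vector (-0.725 ± 0.28). COX8C, another testis form, was at 4.70 and 4.56 against 4.02 and 4.21 (0.515 ± 0.30). Both probe sets are dim, and such levels cannot be told from background here. COX4I2, COX6B2, COX7A1 and COXFA4L2 also lay below the overall median of 6.41 on every array. The split in direction is therefore not set against the ubiquitous subunits. COX4I2, the lung form of the subunit that COX4I1 encodes, differed more between replicates than between groups, at 5.27 and 3.53 with H2BK120R and 5.50 and 3.98 with the vector. COX6A2 and COX7A1, the heart and muscle forms, differed by -0.245 ± 0.28 and 0.02 ± 0.28. COX6B2 and COXFA4L2, the latter a hypoxia-induced relative of COXFA4, differed by -0.21 ± 0.32 and 0.04 ± 0.33. COX7A2L, which joins complexes III and IV into supercomplexes, was at 13.38 and 13.04 with H2BK120R and 13.01 and 12.98 with the vector (0.215 ± 0.14, limma adjusted p = 0.790).

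Among the assembly factors other than PET100, 27 of 30 listed genes were measured, and 19 were lower and 8 higher with H2BK120R. The median was -0.065, and 0 passed in either direction by limma's adjusted p. At an unadjusted p under 0.05 there were 2, both lower, or 7.41% of the list against the 3.08% of all probe sets. They were CMC1, which stabilizes the early core, and COA6, which acts in copper delivery. CMC1 was at 7.68 and 7.87 with H2BK120R and at 8.90 and 8.27 with the vector (-0.81 ± 0.25, limma adjusted p = 0.693). Its mutant arrays lay 0.40 below the nearer vector array. COA6 was at 9.11 and 9.27 against 9.74 and 9.49 (-0.425 ± 0.19, limma adjusted p = 0.745). CMC2 differed by -0.33 ± 0.19. TACO1, which activates translation of the mitochondrial core subunit, differed the other way, by 0.31 ± 0.19. LRPPRC and SLIRP, which protect mitochondrial messenger RNAs, differed by -0.065 ± 0.16 and -0.20 ± 0.15 (named after their values were seen).

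Cytochrome c and complex III, which supply the electrons, had 9 of 11 listed genes measured, 6 lower and 3 higher with H2BK120R, with a median of -0.19. None passed limma's adjusted p. There were 4 with an unadjusted p under 0.05, all lower (44.4% of the list, against 3.08% of all probe sets), namely UQCR11, UQCRQ, UQCR10 and CYCS. UQCR11, a small accessory subunit of complex III, was at 10.28 and 10.09 with H2BK120R and at 10.80 and 10.77 with the vector (-0.60 ± 0.16, limma adjusted p = 0.678). UQCR10 and UQCRQ, of the same kind, differed by -0.545 ± 0.23 and -0.355 ± 0.14, and CYCS, cytochrome c itself, by -0.295 ± 0.13. The other 5 measured genes, named after their values were seen, had an unadjusted p above 0.05, from UQCRH (-0.19 ± 0.17) and CYC1 (-0.11 ± 0.13) to UQCRC1 (0.055 ± 0.16), UQCRB (0.115 ± 0.16) and UQCRC2 (0.175 ± 0.11). Over the 5 pathway lists together, 8 of 57 genes had an unadjusted p under 0.05, against 6.70% of all probe sets. The lists were written with earlier results of these data known, so no excess is read from this count or from the shares of single lists. The count also fell when any single array was left out, which leaves a group with 1 array.

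**Figure D3:**
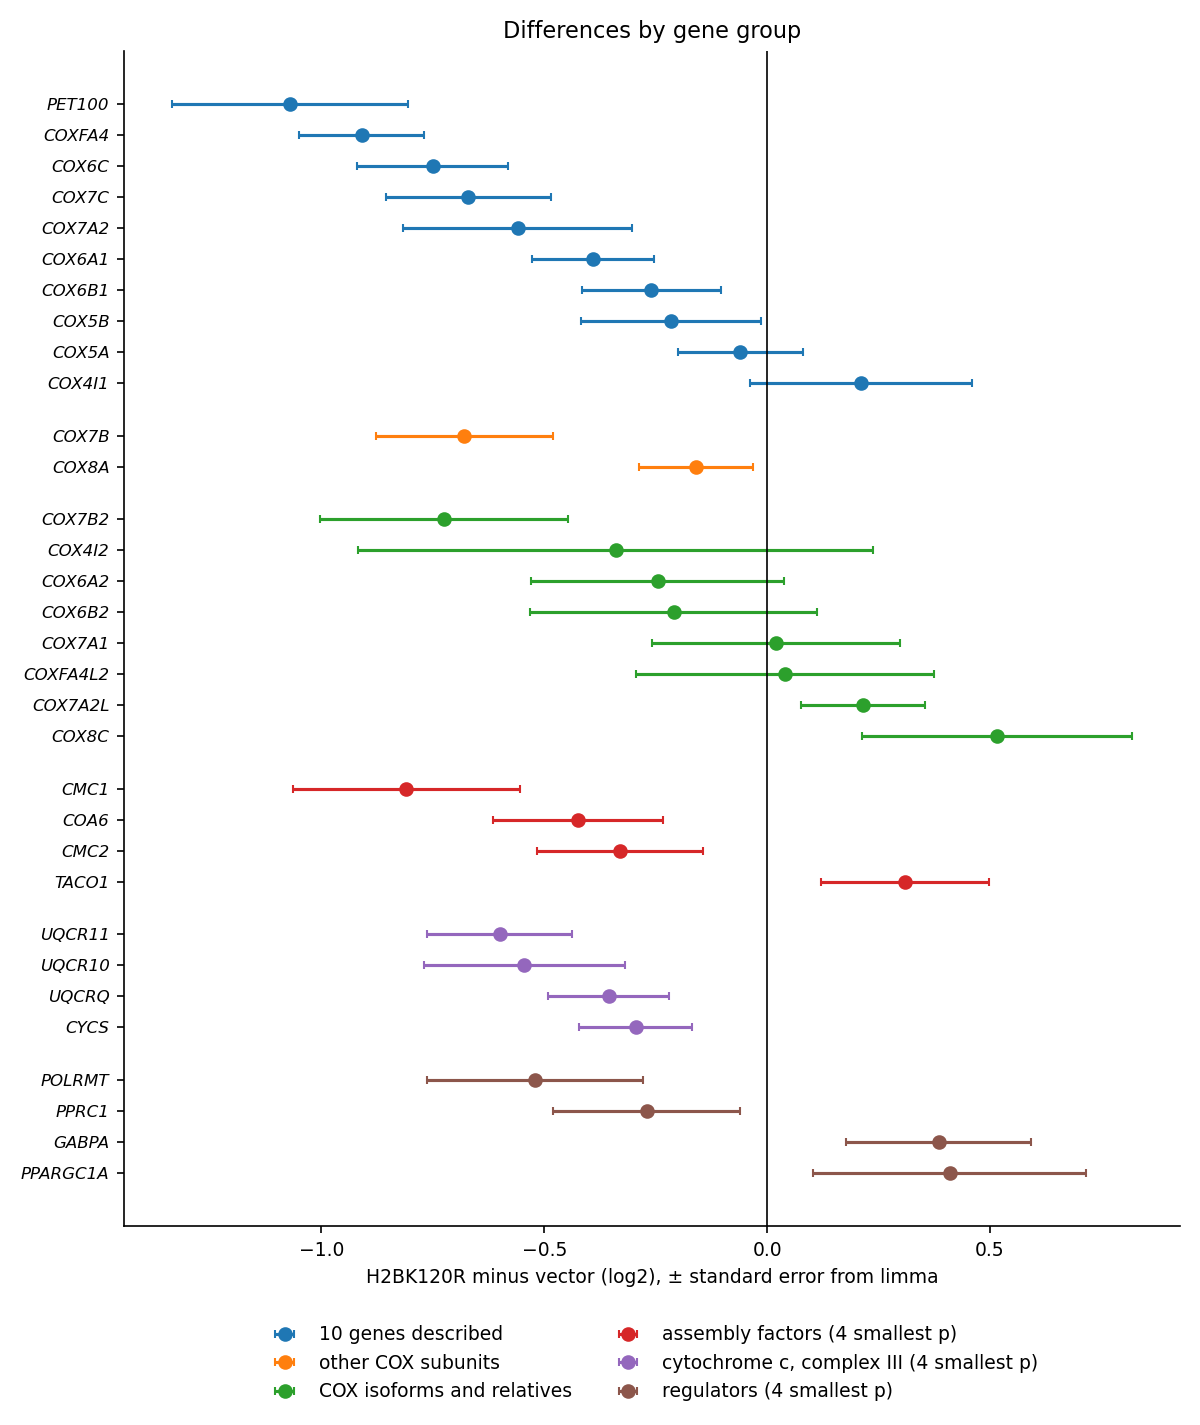
Difference in log2 level, H2BK120R minus vector (x axis), with limma's standard error as bars, for the 10 genes, the other measured subunits and isoforms, and the 4 genes with the smallest p of each further list. The 10 genes run from -1.07 to 0.21. None of the other genes shown passed limma's adjusted p of 0.05.

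The factors listed as regulators were split in direction. The list joins factors of nuclear genes with TFAM, TFB1M, TFB2M and POLRMT, which act on mitochondrial DNA. Its counts and median are therefore not those of regulators of the nuclear genes alone. Of 13 listed factors 11 were measured, 7 were higher and 4 lower with H2BK120R, with a median of 0.135 (0.035 without vector replicate 1). By limma 0 passed the adjusted p and 0 had an unadjusted p under 0.05. GABPA, the DNA-binding chain of nuclear respiratory factor 2, was at 9.33 and 9.81 with H2BK120R and at 9.21 and 9.16 with the vector (0.385 ± 0.21, limma adjusted p = 0.767). Its arrays with H2BK120R lay above both vector arrays, as for 3 of the 11 regulators (27.3%), against 18.6% of all probe sets. For 2 of the 11 (18.2%) they lay below, against 17.9%. NRF1, the other factor named above, was at 9.57 and 9.51 against 9.30 and 9.34 (0.22 ± 0.18, limma adjusted p = 0.833). It was not among the 4 genes of the list with the smallest p. The coactivator genes PPARGC1A and PPRC1 differed by 0.41 ± 0.31 and -0.27 ± 0.21. POLRMT, the polymerase that transcribes mitochondrial DNA, had the smallest p of the list, at -0.52 ± 0.24 (limma adjusted p = 0.745). TFAM, TFB1M and TFB2M differed by 0.165 ± 0.13, 0.135 ± 0.29 and 0.01 ± 0.18.

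Among genes at or above the median level of 6.41, which include all 10, differences also moved with gene length, and the 10 genes are short. Genomic length in the RefSeq table for GRCh38.p14 ran from 2.16 kb for PET100 to 18.3 kb for COX5A. Among the 766 genes of up to 5 kb at or above the median level, 63.1% were lower with H2BK120R and the median was -0.08. Among the 1748 such genes over 100 kb, 31.5% were lower and the median was 0.11. With 1 array left out, the medians of these classes lay between -0.10 and -0.0525 and between 0.085 and 0.13. Among dimmer genes the medians of all length classes lay between -0.05 and -0.03. At or above the median level, the median was -0.03 for genes of 5 to 10 kb and -0.01 for those of 10 to 20 kb. The 4 members of the shortest class were PET100 (-1.07), COX7C (-0.67), COX6A1 (-0.39) and COX5B (-0.215), each below the median of that class. COXFA4, at 8.21 kb, and COX6C, at 15.8 kb, were also below the medians of theirs. COX5A, COX6B1 and COX7A2, of 10 to 20 kb, were below it too, COX5A (-0.06 ± 0.14) by less than its SE. COX4I1, at 7.37 kb, was above. Since the 10 genes were picked on this contrast, nothing is read from their places beside the class medians. The part of gene length in the differences of the 10 genes was not tested.

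**Figure D4:**
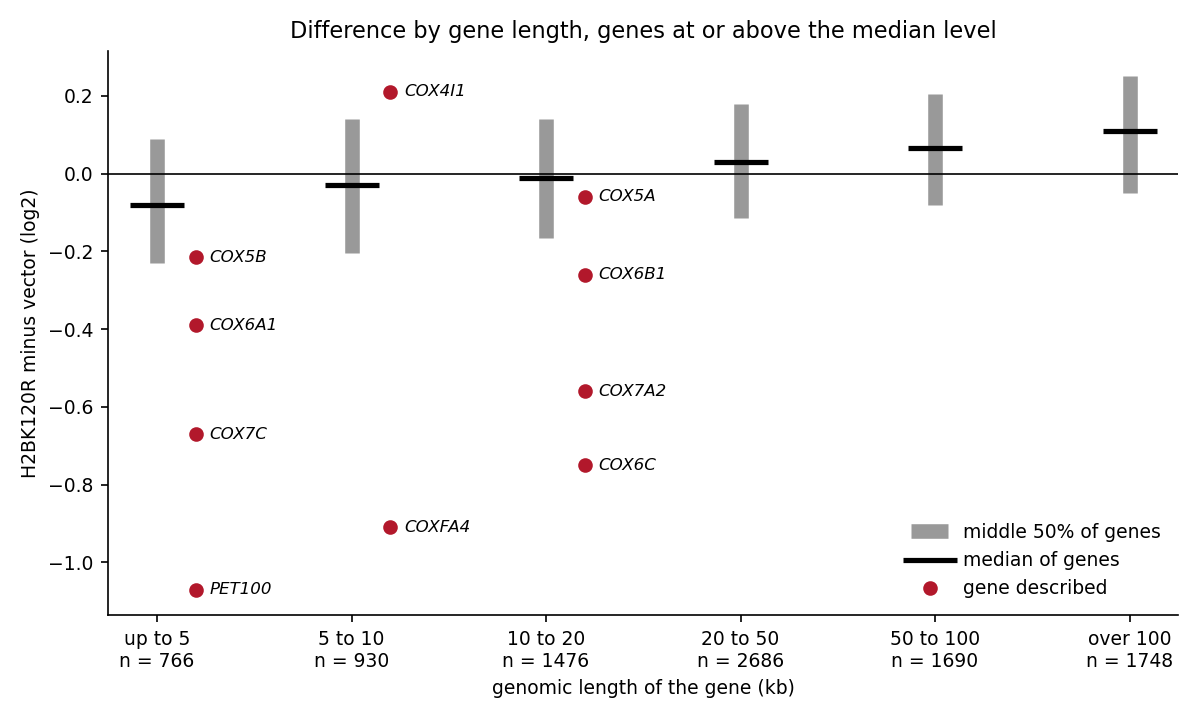
Difference in log2 level, H2BK120R minus vector (y axis), by genomic length (x axis, classes in kb with the number of genes) for genes at or above the median level. Black bars are class medians, which run from -0.08 to 0.11, grey bars hold the middle 50% of genes, and red points are the 10 genes, set beside the class they belong to.

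The 6 genes whose profile over the 4 arrays was nearest to the mean profile of the 10 were searched among 9288 other genes at or above the median level. The measure was the root mean square distance between levels centred on each gene's mean. Nearest were the probe sets annotated as RPL21 (0.022) and RPS27 (0.026), symbols of proteins of the large and small ribosomal subunits. They were followed by DENND11, CCHCR1, P4HA2, a collagen prolyl hydroxylase, and ANK2, an ankyrin that anchors membrane proteins, at 0.030 to 0.032. The RPL21 probe set (TC1000012032.hg.1) was at 11.52 and 11.33 with H2BK120R and at 11.96 and 11.81 with the vector. Its symbol comes from the annotation alone. The identifier begins with TC10, for chromosome 10, which is not the chromosome of the RPL21 gene. The probe set may therefore measure a related sequence elsewhere, which was not checked further. Its profile is not read as that of the ribosomal protein gene. Among the 10 genes themselves, COX6A1 lay nearest to their mean profile (0.039) and COX4I1 furthest (0.458). With 4 arrays many genes can share a profile, so nearness here describes only these arrays.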

How the data were processed

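Total RNA was profiled on 1-colour Affymetrix whole-transcript arrays, with biotin-labelled cDNA per the labels' protocols, in 2 groups of 2. The deposited values were taken as log2 levels per probe set, normalized by the authors, with 1 column per array. A base of 2 was inferred from the range of the values, and the between-array normalization from the like medians of the columns. Per the submitters' processing notes MAS5 was used, with no version or role given. None of the sources used here states a build, a background correction or detection calls.

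Of 21448 probe sets, 17709 had 1 gene symbol in GEO's platform annotation, and the other 3739, with no symbol or several, were not counted apart. The brightest probe set stood for a gene, and all 10 genes had 1. Of 102 listed symbols 89 were matched. The groups were compared with lmFit and eBayes of limma 3.58.1 (R 4.3.3, mean-variance trend, two-sided) on the deposited values, and p-values were adjusted over all probe sets by Benjamini-Hochberg. There were 2 residual and 8.95 prior degrees of freedom. The fit was tested on simulated data. At an adjusted p under 0.05 it recovered 22.9% of changes of 1 log2 unit, 92.2% of 2 and 99.7% of 3. The tested differences of the genes named here were below 1. Failing the adjusted p therefore does not show that a gene was unchanged. The number of arrays limits the precision, and an exact permutation test of 2 arrays against 2 cannot give a two-sided p below 0.333.

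The members and lists were chosen with earlier results of these data known. By rule, the text names the 10 genes, every measured further subunit or isoform, the 4 genes of each other list with the smallest p and the 6 nearest profiles. Named outside that rule were NRF1, TFAM, TFB1M, TFB2M, LRPPRC, SLIRP and the remaining measured genes of complex III, besides LDOC1 and cell type markers. A split by protein length was planned, but no protein table was used here, and genomic length, chosen after seeing the data, took its place. The planned change of pseudocount was not run, the values being logarithms. Alternatives were quantile normalization, equal medians, each array left out, the replicate number as a block, averaged probe sets, filters on dim probe sets and other eBayes settings.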

Additional observations from a re-analysis of the deposited data

How the results depend on the processing

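No probe set passed a limma adjusted p of 0.05 under any setting run. The count at an unadjusted p under 0.05, added after seeing that result, was 1437, and leaving out single arrays gave counts from 495 (H2BK120R replicate 2 omitted) to 2427 (vector replicate 2 omitted). Omitting H2BK120R replicate 1 gave 744, and the count was 903 without the dimmest 50% of probe sets, where fewer were tested. The labels do not say that the replicate numbers mark shared cultures or days. Deviations of same-numbered arrays from their group means correlated at 0.141 over probe sets, and with the replicate number as a block the count was 1846, with 0 past the adjusted threshold. The block changed no call at the adjusted p, while the count in the pathway lists at an unadjusted p went from 8 to 9.

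The number of the 10 genes below the vector arrays without overlap was 7 with quantile normalization (18.6% of all probe sets) and with equal medians (19.4%). With 1 array left out it was 7 to 9, where 30.8% to 37.0% of all probe sets were also below, so these counts are not comparable with the 7 of the full set. Their median difference, -0.475, was -0.275 at the highest (without H2BK120R replicate 2) and -0.665 at the lowest with 1 array left out. The medians of the lists ranged, over the same fits, from -0.49 to -0.35 for COX7B and COX8A, from -0.155 to 0.15 for isoforms, from -0.13 to -0.055 for assembly factors, from -0.235 to -0.145 for cytochrome c and complex III and from 0.035 to 0.175 for regulators. With equal medians the assembly factors were at -0.08 in place of -0.065, since that setting shifts all probe sets by -0.015. For the other changes the cause was not tested. Where 1 array was omitted, its lone partner was taken to have the spread of the other group.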
